A study of Mus musculus with 6 samples.

Results

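The 10 genes described here belong to the NRF2 pathway and were followed in mouse liver: *Nfe2l2*, which encodes NRF2, its inhibitor *Keap1*, and the target genes *Nqo1*, *Osgin1*, *Cbr1*, *Cbr3*, *Slc48a1*, *Aox1*, *Ephx1* and *Ugdh*. They were picked by gene symbol as the regulator pair and targets outside glutathione and thioredoxin metabolism, and all 10 were found among the 52550 gene identifiers of the count table. RNA was taken from the livers of 3 transgenic mice of the line Slc7a11-LTG (TG) and of 3 controls (WT). All 6 mice were males of 8 weeks that had been fed a methionine- and choline-deficient (MCD) diet during 1 week, so the data hold no liver on another diet. The labels do not name the promoter of the transgene or the mouse strain.

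NRF2 is a transcription factor that KEAP1 holds in the cytoplasm and hands to a ubiquitin ligase for degradation. Electrophiles and oxidants modify KEAP1, after which NRF2 enters the nucleus, pairs with small MAF proteins and binds antioxidant response elements near genes of detoxification. In liver the targets include enzymes that reduce quinones and carbonyls, hydrolyse epoxides, oxidise aldehydes and supply glucuronic acid.

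Total counts lay between 16016640 and 17463329 per library, and each of the 10 genes had at least 53 counts in each library. Values are counts relative to library size (CPM), with the sizes scaled by the TMM method, and 3 counts, the smallest number told from 0 here, correspond to 0.172 to 0.187 CPM before that scaling. *Slc7a11*, the transgene's own gene, had 4416, 1377 and 2907 CPM in TG replicates 1 to 3 and 2.92, 3.33 and 10.6 CPM in WT replicates 1 to 3, so each library matched its label. *Alb*, which encodes the hepatocyte product albumin, lay between 69209 and 76489 CPM in the TG livers and between 74261 and 136453 CPM in the WT ones. Counts per gene come from whole liver, where a change in the number of cells of a type cannot be told apart from a change in RNA per cell.

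None of the 10 genes passed an adjusted p of 0.05 between TG and WT livers. By the quasi-likelihood test of edgeR, adjusted over 14031 genes after Benjamini and Hochberg, 0 of 10 were called, against 0% of all genes. DESeq2 and limma voom also called 0 of the 10, against 3.02% and 0.00713% of all genes. At an unadjusted p below 0.05 edgeR gave 1 of the 10, *Slc48a1*, against 11.1% of all genes, 8.68% higher and 2.37% lower in TG. *Slc48a1* was also the 1 member whose TG and WT values did not overlap, against 15.4% of all genes, 9.22% higher and 6.14% lower in TG. The fitted log2 fold change, TG minus WT, was positive for 3 members and negative for 7, with a median of -0.11 beside -0.03 for all genes. With library size as the only scaling these medians were 0.02 and 0.09. With 3 mice a group, the smallest two-sided p of an exact permutation test is 0.1, so none is reported.

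**Figure D1:**
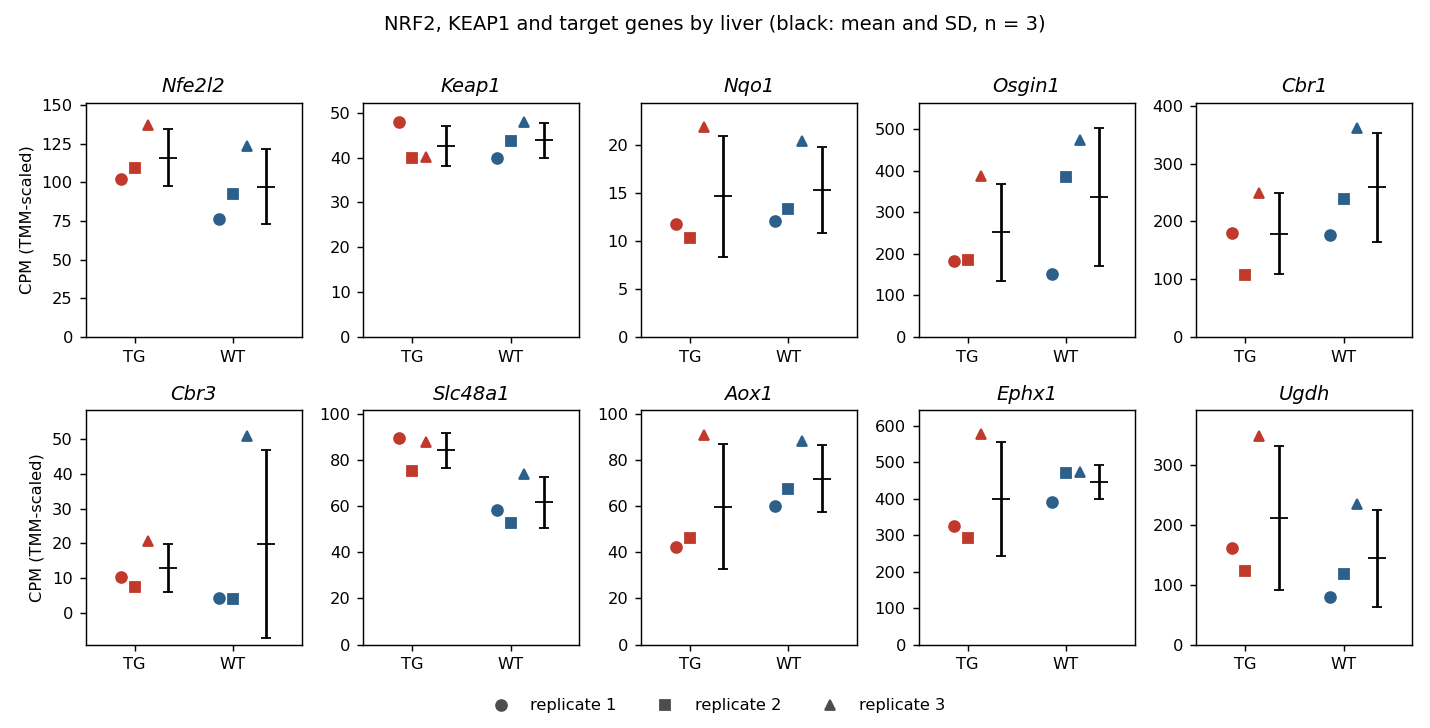
TMM-scaled CPM of the 10 genes in each liver, with TG in red and WT in blue, a marker shape per replicate number, and the mean and SD of 3 mice in black. The 2 groups overlap in 9 genes, and the triangles (replicate 3) are the highest value of TG in 8 genes and of WT in 10.

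The 250 bases before the RefSeq start were searched on both strands in 9 members. The motif TGACNNNGC, the core of the antioxidant response element, was found in 2 of the 9, *Nfe2l2* and *Ugdh*, and in 10.2% of 32851 mouse promoters. Its form TGACTCAGC was found in 0 of the 9 and in 0.390% of all. The motif TGANTCAGC, which includes that form and was added after the sequences were seen, was found in *Osgin1* and in 1.02% of all. GCGTG, the core bound by the aryl hydrocarbon receptor, which also induces *Nqo1*, was found in 5 of the 9 and in 28.2% of all. One GCGTG in *Ugdh* is part of a TGACNNNGC match on the opposite strand. The stretches below show the matches to the 2 NRF2 motifs, in capitals with up to 25 bases on either side, 5′ to 3′ on the strand of the gene (RefSeq, build GRCm38.p6). The first lies 240 to 232, the second 132 to 124, the third 94 to 86 and the last 99 to 91 bases before the start.
Nfe2l2, chr2:75704870-75704913, minus strand: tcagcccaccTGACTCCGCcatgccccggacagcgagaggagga
Ugdh, chr5:65435941-65435999, minus strand: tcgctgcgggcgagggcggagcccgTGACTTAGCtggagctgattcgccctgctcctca
Ugdh, chr5:65435903-65435961, minus strand: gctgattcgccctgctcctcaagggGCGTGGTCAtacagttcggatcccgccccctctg
Osgin1, chr8:119437023-119437081, plus strand: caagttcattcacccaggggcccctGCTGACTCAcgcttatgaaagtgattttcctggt

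The third and the last match lie on the opposite strand, where the motif reads TGACCACGC in *Ugdh* and TGAGTCAGC in *Osgin1*. The *Osgin1* match overlaps a GCGTG on the opposite strand. The RefSeq start lay inside the GENCODE span of the gene, by 1 to 3335 bases, in 8 of the 9 members, all but *Nfe2l2*. The third and the last match therefore lie inside the span of their gene, and the first and the second lie before it. A match describes letters in a window and does not show binding.

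*Nfe2l2* (minus strand of chromosome 2, 75675513 to 75704641, build mm10) had 102, 109 and 137 CPM in TG replicates 1 to 3 and 76.2, 92.2 and 123 CPM in WT replicates 1 to 3. The groups overlapped, with WT replicate 3 above TG replicates 1 and 2. The means were 116 ± 18.5 CPM in TG and 97.3 ± 24.03 CPM in WT (SD, n = 3 each). The log2 fold change was 0.25, with a standard error (SE) of 0.23 and a 95% interval of -0.28 to 0.79 (edgeR adjusted p = 0.733).

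*Keap1* (minus strand of chromosome 9, 21229730 to 21239361) varied least of the 10 over the 6 livers. It had 47.9, 40.01 and 40.1 CPM in TG replicates 1 to 3 and 39.9, 43.7 and 47.8 CPM in WT replicates 1 to 3. The lowest and the highest liver of either group differed 1.20-fold, and the means were 42.6 ± 4.51 CPM in TG and 43.8 ± 3.95 CPM in WT (SD, n = 3 each). The log2 fold change was -0.04 with a 95% interval of -0.40 to 0.32 (edgeR adjusted p = 0.947). Its sign turned with library size as the only scaling (0.065) and without WT replicate 3 (0.025) or TG replicate 2. An antisense gene, Gm16754, shares 510 exon bases with *Keap1* and held 8 to 15 counts per library, against 578 to 920 for *Keap1*. The strand setting of the counting is not given in the sources used here, so reads of that stretch could belong to either gene.

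The ratio of *Nfe2l2* to *Keap1* counts, which does not depend on the scaling between libraries, was 2.13, 2.73 and 3.42 in the TG livers, in the order of their replicate numbers, and 1.91, 2.11 and 2.58 in the WT livers. The ranges overlapped, and replicate 3 had the highest ratio in either group.

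Other regulators of NRF2 gave a list of 19 genes, of which 18 were tested, 9 with a positive and 9 with a negative log2 fold change (median -0.01). With edgeR 0 passed the adjusted threshold, 1 passed an unadjusted p below 0.05 (against 11.1% of all genes), and DESeq2 called 0 (against 3.02%). That gene was *Bach1*, a repressor that competes with NRF2 for small MAF partners and antioxidant response elements. It had 51.6, 55.9 and 57.5 CPM in TG replicates 1 to 3 and 67.5, 93.1 and 97.8 CPM in WT replicates 1 to 3, so all TG livers lay below all WT livers. Its log2 fold change was -0.65 with an SE of 0.18 (edgeR adjusted p = 0.343, DESeq2 adjusted p = 0.0835). Over all alternatives the log2 fold change of *Bach1* lay between -0.80 and -0.53. *Palb2*, whose product binds KEAP1, was the next by p, at 2.42 ± 0.589 CPM in TG and 1.28 ± 0.540 CPM in WT (SD, n = 3 each, edgeR adjusted p = 0.506). *Bach2*, named after its values were seen, and *Palb2* were the 2 regulators with all TG values above all WT values. These are 2 of the 18 tested, against 9.22% of all genes. *Bach1* was the 1 of the 18 with all TG values below all WT values, against 6.14% of all genes.

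*Slc48a1* encodes HRG1, a transporter that moves heme out of the lysosome, and lies on the plus strand of chromosome 15, at 97778520 to 97792692. It had 89.6, 75.4 and 87.9 CPM in TG replicates 1 to 3 and 58.3, 52.9 and 74.3 CPM in WT replicates 1 to 3. All TG livers lay above all WT livers, the nearest pair being TG replicate 2 and WT replicate 3. The means were 84.3 ± 7.76 CPM in TG and 61.8 ± 11.1 CPM in WT (SD, n = 3 each), 1.36-fold higher with a 95% interval of 1.01 to 1.83. The unadjusted p was 0.0423, the edgeR adjusted p 0.429 and the DESeq2 adjusted p 0.373. With library size as the only scaling the groups overlapped, and the unadjusted p was no longer below 0.05. The same held of the unadjusted p when any 1 library other than TG replicate 2 and WT replicate 3 was left out, and its log2 fold change lay between 0.35 and 0.60 over all libraries left out. *Hdac7*, on the opposite strand, shares 29 exon bases with *Slc48a1* and had 74 to 199 counts per library.

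Macrophages take up heme from red cells and carry the HRG1 transporter, and their markers differed between the libraries. All 16 macrophage markers of the list had a positive log2 fold change (median 1.91). The lowest count of any of them in any library was 19. With edgeR 16 passed an unadjusted p below 0.05, against 11.1% of all genes, and 0 an adjusted one. DESeq2 called 14, against 3.02% of all genes. Their summed level was 3018, 5150 and 952 CPM in TG replicates 1 to 3 and 665, 572 and 952 CPM in WT replicates 1 to 3. The macrophage gene *Cd68* had 45.5, 48.7 and 24.5 CPM in TG and 12.8, 8.17 and 13.8 CPM in WT replicates 1 to 3. *Adgre1*, which encodes the macrophage antigen F4/80, had 82.3, 163 and 20.6 CPM in TG and 15.7, 10.3 and 28.1 CPM in WT replicates 1 to 3. TG replicate 3 and WT replicate 3 both had a summed macrophage level of 952 CPM, while *Slc48a1* lay at 87.9 CPM in the first of these livers and 74.3 CPM in the second. The part of macrophages in the *Slc48a1* difference was not tested.

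*Slc48a1* stood beside a heme list of 13 genes, all tested, of which 10 had a positive log2 fold change (median 0.62). In TG, 4 were higher and 1 lower by an unadjusted p under 0.05 with edgeR, against 8.68% and 2.37% of all genes. After adjustment edgeR called 0 and DESeq2 called 3, against 0% and 3.02% of all genes. *Hmox1*, the heme oxygenase and an NRF2 and BACH1 target, had 98.3, 354 and 35.8 CPM in TG replicates 1 to 3 and 25.4, 17.6 and 26.1 CPM in WT replicates 1 to 3. Its 3 TG values lay above the WT values and were highest where the macrophage level was highest (log2 fold change 2.82, SE 0.76, edgeR adjusted p = 0.343, DESeq2 adjusted p = 0.00598). Neutrophil markers had the same order over the TG livers, and the part of either cell type was not tested. *Slc11a1*, a divalent metal transporter of phagocyte vesicles, had 62.7, 74.3 and 18.8 CPM in TG replicates 1 to 3 and 10.99, 8.85 and 19.2 CPM in WT replicates 1 to 3. For this gene TG replicate 3 lay within the WT range.

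*Nqo1* (minus strand of chromosome 8, 107388225 to 107403206) encodes a quinone reductase often used as a readout of NRF2. It had 11.8, 10.3 and 21.9 CPM in TG replicates 1 to 3 and 12.1, 13.3 and 20.4 CPM in WT replicates 1 to 3. Replicate 3 had the highest value in both groups, and the other 4 livers lay between 10.3 and 13.3 CPM. The log2 fold change was -0.06 with an SE of 0.34 and a 95% interval of -0.86 to 0.75, which allows anything from 0.550-fold to 1.68-fold of the WT level. Its sign turned with library size as the only scaling (0.055) and when TG replicate 1 (0.079), TG replicate 2 (0.15) or WT replicate 3 (0.22) was left out. The paralog *Nqo2*, a quinone reductase outside the list of members, had 41.4, 36.2 and 54.8 CPM in TG replicates 1 to 3 and 52.4, 57.1 and 44.9 CPM in WT replicates 1 to 3. *Nqo2* was thus highest of TG in replicate 3 and lowest of WT in replicate 3.

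*Osgin1*, whose product restrains cell growth under oxidative stress, lies on the plus strand of chromosome 8, at 119434124 to 119446256. It had 184, 185 and 387 CPM in TG replicates 1 to 3 and 152, 386 and 473 CPM in WT replicates 1 to 3. All TG livers lay inside the range of the WT livers, between WT replicates 1 and 3. The means were 252 ± 117 CPM in TG and 337 ± 166 CPM in WT (SD, n = 3 each), and the log2 fold change was -0.42 with a 95% interval of -1.55 to 0.70 (edgeR adjusted p = 0.793).

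*Cbr1* and *Cbr3* are neighbouring carbonyl reductase genes on the plus strand of chromosome 16, from 93605853 to 93610505 and from 93683215 to 93690990. Their annotated transcripts share 1 stretch of 50 bases among the 1254 of *Cbr3*, so reads of that length would rarely fit both. *Cbr1* had 180, 108 and 249 CPM in TG replicates 1 to 3 and 176, 239 and 362 CPM in WT replicates 1 to 3, with overlapping groups. Its log2 fold change was -0.54 with a 95% interval of -1.43 to 0.36 (edgeR adjusted p = 0.656).

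*Cbr3* had 10.3, 7.46 and 20.6 CPM in TG replicates 1 to 3 and 4.19, 4.01 and 51.01 CPM in WT replicates 1 to 3. WT replicates 1 and 2 were below all TG livers and WT replicate 3 was above them all, a 12.7-fold spread within WT and the widest of the 10 genes. The sign of the difference turned when WT replicate 3 was left out, and also with limma voom (0.15). The log2 fold change was -0.63 (SE 0.97) with all libraries and 1.65 without WT replicate 3, with edgeR adjusted p of 0.854 and 0.262 in that order. The ratio of *Cbr3* to *Cbr1* counts was 0.0575, 0.0693 and 0.0828 in the TG livers, by replicate number, and 0.0238, 0.0168 and 0.141 in the WT livers, so the excess of *Cbr3* in WT replicate 3 was larger than that of its neighbour. *Cbr4*, a mitochondrial relative chosen by p from the list of paralogs, had 18.3, 18.7 and 24.6 CPM in TG and 37.6, 32.2 and 23.8 CPM in WT replicates 1 to 3 (log2 fold change -0.60, SE 0.22, edgeR adjusted p = 0.388). *Cbr2* had at most 3 counts in a TG liver and 1 in a WT liver, which is at or below the floor of 3 counts.

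*Aox1* encodes an aldehyde oxidase that needs the molybdenum cofactor, and lies on the plus strand of chromosome 1, at 58029931 to 58106413. It had 42.3, 46.2 and 91.2 CPM in TG replicates 1 to 3 and 60.1, 67.6 and 88.2 CPM in WT replicates 1 to 3. TG replicates 1 and 2 were below all WT livers and TG replicate 3 was above them all. The means were 59.9 ± 27.2 CPM in TG and 72.004 ± 14.6 CPM in WT (SD, n = 3 each, log2 fold change -0.27, 95% interval -1.02 to 0.49, edgeR adjusted p = 0.805). *Aox3*, a neighbouring aldehyde oxidase gene, had 109, 190 and 360 CPM in TG replicates 1 to 3 and 354, 305 and 193 CPM in WT replicates 1 to 3. *Aox3* shared with *Aox1* the high TG replicate 3, but in WT it was lowest where *Aox1* was highest.

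Among 9 genes of the molybdenum cofactor pathway and its other enzymes, 7 had a negative log2 fold change (median -0.32), and 0 passed the adjusted threshold with edgeR or DESeq2. Unadjusted p-values under 0.05 were found for 2 lower and 0 higher genes, against 2.37% and 8.68% of all genes. *Mocs2*, a subunit of molybdopterin synthase, had 112, 78.4 and 84.7 CPM in TG replicates 1 to 3 and 119.5, 149 and 131 CPM in WT replicates 1 to 3. *Mocs3*, which supplies sulfur to that enzyme, averaged 5.38 ± 0.353 CPM in TG and 8.11 ± 1.69 CPM in WT (SD, n = 3 each). In both genes all TG livers lay below all WT livers, with edgeR adjusted p of 0.393 and 0.447.

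*Ephx1*, the microsomal epoxide hydrolase (minus strand of chromosome 1, 180976210 to 181020904), had 326, 294 and 578 CPM in TG replicates 1 to 3 and 393, 471 and 475 CPM in WT replicates 1 to 3. The 3 WT livers lay inside the range of the TG livers, and TG replicate 3 was the highest of all 6. The log2 fold change was -0.16 with a 95% interval of -0.90 to 0.58 (edgeR adjusted p = 0.887), and it was 0.028 without TG replicate 2. *Ephx2*, the soluble epoxide hydrolase, had 899, 406 and 372 CPM in TG and 1264, 1228 and 345 CPM in WT replicates 1 to 3. In contrast to *Ephx1*, it was lowest in replicate 3 of either group.

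*Ugdh* (minus strand of chromosome 5, 65413221 to 65435949) makes UDP-glucuronic acid, the sugar donor of glucuronidation. It had 162, 124 and 349 CPM in TG replicates 1 to 3 and 80.01, 118 and 236 CPM in WT replicates 1 to 3. Each TG liver exceeded WT replicates 1 and 2, while WT replicate 3 exceeded TG replicates 1 and 2. The means were 211 ± 120.3 CPM in TG and 145 ± 81.1 CPM in WT (SD, n = 3 each), 1.46-fold higher with a 95% interval of 0.641 to 3.34 and an edgeR adjusted p of 0.741. Without TG replicate 3 the log2 fold change was -0.049, and without WT replicate 3 it was 1.11, against 0.55 with all libraries.

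The other 16 genes of glucuronic acid supply and glucuronidation had a median log2 fold change of -0.29, with 13 negative and 3 positive. With edgeR 0 passed the adjusted threshold, DESeq2 called 0, and 1 gene in each direction had an unadjusted p below 0.05. Among all genes 8.68% were higher and 2.37% lower in TG by that p. *Ugt1a1*, the enzyme that conjugates bilirubin, had 25.7, 9.72 and 19.0 CPM in TG replicates 1 to 3 and 46.7, 51.2 and 20.7 CPM in WT replicates 1 to 3 (edgeR adjusted p = 0.404). *Gusb*, the lysosomal enzyme that removes glucuronic acid, averaged 59.6 ± 10.3 CPM in TG and 42.9 ± 7.58 CPM in WT (SD, n = 3 each, edgeR adjusted p = 0.448). Single *Ugt1a* genes share their last exons, so their separate counts are uncertain.

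**Figure D2:**
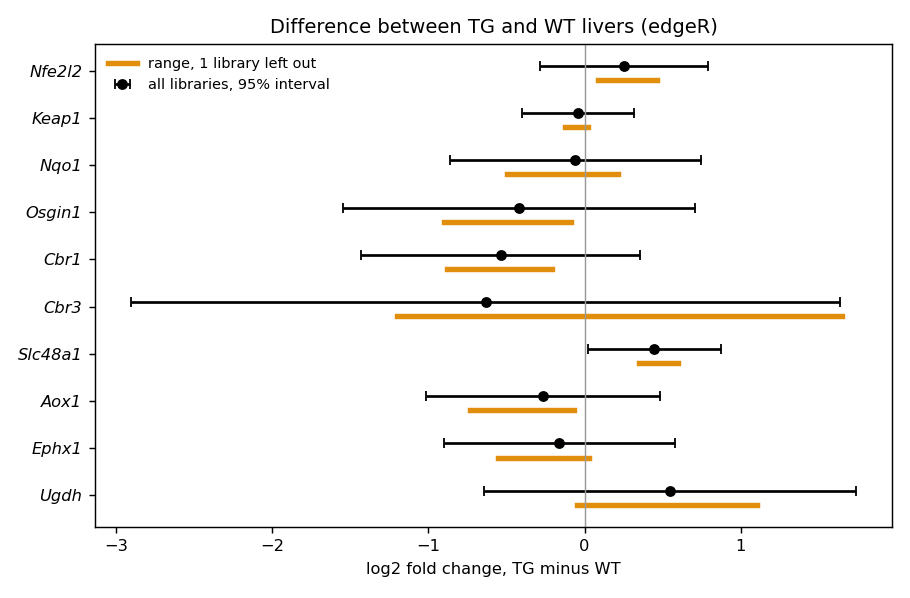
Log2 fold change, TG minus WT, of the 10 genes with its 95% interval from edgeR (black) and, below each, the range of the value when 1 library at a time was left out (orange). All intervals but that of Slc48a1 (0.02 to 0.87) include 0, and the orange range of Cbr3 runs from -1.20 to 1.65.

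Levels of different genes were compared per kilobase of merged exons. These lengths, from 1.254 kb for *Cbr3* to 8.69 kb for *Aox1*, include every annotated exon, used in liver or not. The order of the genes therefore depends on the annotation. *Ephx1* was the highest of the 10 in both groups, at 205 ± 79.99 CPM per kb in TG and 229 ± 23.8 CPM per kb in WT livers (SD, n = 3 each). *Osgin1* followed at 94.2 ± 43.8 in TG and 126 ± 62.1 CPM per kb in WT, and *Cbr1* at 69.9 ± 27.6 in TG and 101 ± 37.2 CPM per kb in WT. The ranges of *Osgin1* and *Cbr1* over livers overlapped in both groups, while *Ephx1* lay apart from both.

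*Ugdh*, *Slc48a1* and *Nfe2l2* formed a middle tier at 31.3, 30.6 and 30.6 CPM per kb in TG livers and at 21.4, 22.5 and 25.6 CPM per kb in WT livers, and neighbours within it overlapped. *Cbr3*, *Nqo1*, *Keap1* and *Aox1* were the lowest 4 in either group, between 6.89 and 10.2 CPM per kb in TG and between 8.29 and 15.7 CPM per kb in WT. Neighbours within these 4 overlapped too. In TG *Ugdh* overlapped with *Cbr1* as well. The middle tier lay apart from the lower one in TG, but not in WT. In WT *Cbr3* reached 40.7 CPM per kb in replicate 3, above all values of the middle tier, and overlapped with *Ugdh*, *Slc48a1* and *Nfe2l2*. *Nqo1* overlapped with *Ugdh* in WT too, with a highest value of 13.2 against a lowest of 11.8 CPM per kb.

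**Figure D3:**
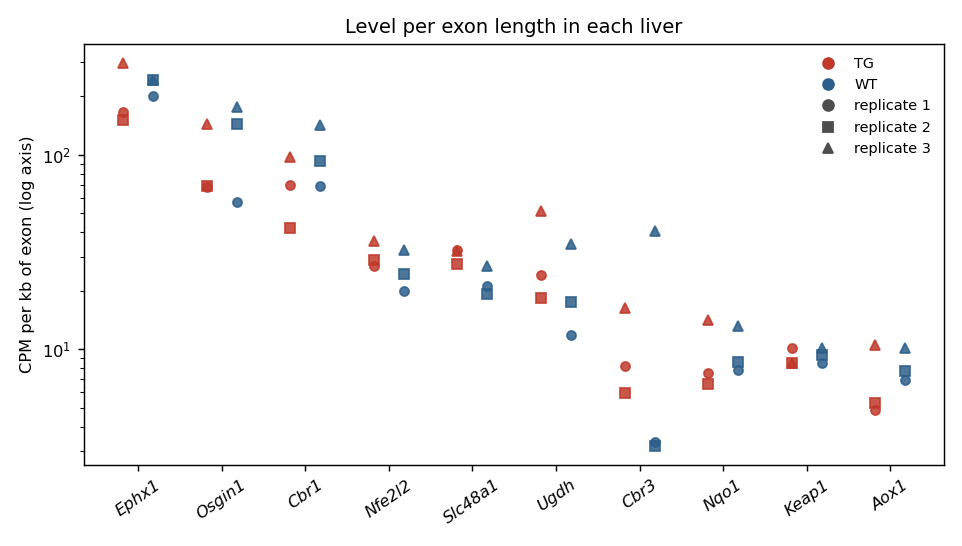
CPM per kilobase of exon (log axis) of the 10 genes in each liver, ordered by the WT mean, with TG in red left of WT in blue and a marker shape per replicate number. Ephx1 is highest at 205 CPM per kb in TG and 229 in WT, and Aox1 lowest at 6.89 in TG and 8.29 in WT.

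The highest and the lowest liver differed more than 2-fold within TG in 6 genes and within WT in 4, and the gap between group means exceeded both SDs in 1 gene, *Slc48a1*. TG replicate 3 was the highest TG liver for 8 of the 10 genes, against 31.9% of all genes tested, and WT replicate 3 the highest WT liver for all 10, against 37.1%. Both held for 8 of the 10, all but *Keap1* and *Slc48a1*, against 14.5% of all genes. With library size as the only scaling, both held for 9 of the 10. This pattern was noticed after the values were seen. The 3 genes with a promoter match to an NRF2 motif, *Nfe2l2*, *Ugdh* and *Osgin1*, followed it, and so did 5 of the 6 without one, all but *Keap1*.

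**Figure D4:**
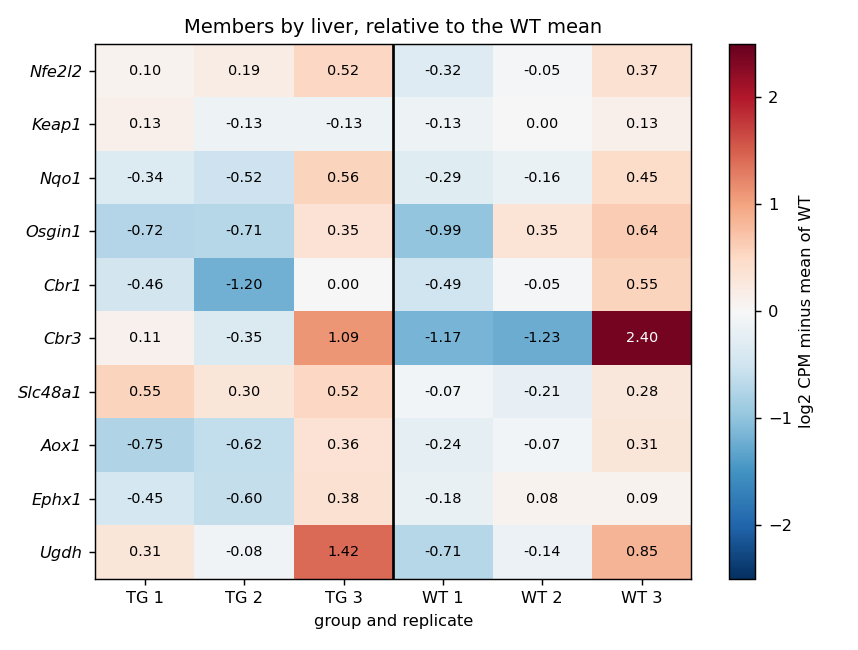
Log2 CPM of each gene in each liver minus its mean over the 3 WT livers, with red for higher and blue for lower. The columns of TG replicate 3 and WT replicate 3 are red in most rows, and Cbr3 reaches 1.09 in the first of these and 2.40 in the second.

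Relative to the WT mean, the median over the 10 genes by replicate number was -0.12, -0.44 and 0.45 (log2) for the TG livers and -0.31, -0.063 and 0.41 for the WT livers. For all genes tested it lay between -0.02 and 0.02 in the 6 libraries. For 37 other NRF2 targets the median was -0.073, -0.047 and 0.33 for the TG livers and -0.13, -0.042 and 0.17 for the WT livers, and 12 of them were highest in replicate 3 of both groups. Summed hepatocyte markers, 12 genes, came to 121566, 107896 and 100208 CPM in TG replicates 1 to 3. In WT replicates 1 to 3 they came to 153474, 196257 and 100507 CPM. The sums were lowest in replicate 3 of either group but lay mostly in *Alb*, which had 69209 CPM in TG replicate 3. The median over these 12 genes was 0.003, -0.49 and -0.48 for the TG livers and 0.21, 0.44 and -0.69 for the WT livers. By that median TG replicate 2 was as low as TG replicate 3. The TMM factors were 0.977, 1.02 and 1.15 in TG and 0.937, 0.826 and 1.13 in WT replicates 1 to 3. They were highest in replicate 3 of either group. The part of these differences in the members' pattern was not tested, and the labels give no batch, litter or collection time.

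Without TG replicate 3 and WT replicate 3 together, an alternative added after seeing the data, edgeR still called 0 of the 10 genes, against 3.09% of all genes. At an unadjusted p below 0.05 it gave 3 of the 10, against 17.1% of all genes: *Slc48a1* and *Cbr3* with positive and *Aox1* with negative log2 fold changes. The remaining pairs of livers did not overlap for 7 of the 10, against 47.3% of all genes. Leaving out TG replicate 3 alone gave 4 of the 10 without overlap, against 28.9%, and leaving out WT replicate 3 alone gave 4, against 34.8%.

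Genes with the pattern most like a member were found by the mean absolute difference of centred log2 CPM over the 6 libraries, among 8378 genes with a mean of at least 10 CPM. They were *Myo1c*, *Rab11fip1* and *Ddx39* for *Nfe2l2* (0.03, 0.05 and 0.06 on the log2 scale) and *Eif2b2*, *Sec24c* and *Chmp6* for *Keap1* (0.03, 0.03 and 0.04). For *Nqo1* they were *Plpp5*, *Bet1* and *Pcna* (0.09, 0.11 and 0.11). Among the members themselves *Aox1* and *Ephx1* were the closest pair, at 0.11, and *Aox1* was the closest to *Nqo1*, at 0.13. Each of the other 9 was farther from *Cbr3* than from any other member.

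Other NRF2 targets, a list of 38 genes without *Slc7a11*, were tested for 37, with 20 positive and 17 negative log2 fold changes and a median of 0.03. With edgeR 0 passed the adjusted threshold. Unadjusted p-values under 0.05 were found for 3 genes higher and 1 lower in TG, which is 10.8% of the list against 11.1% of all genes. DESeq2 called 2, *Hmox1* and *Abcc1*, against 3.02% of all genes. *Abcc1*, an exporter of glutathione conjugates, had 9.59, 16.7 and 3.50 CPM in TG replicates 1 to 3 and 3.30, 2.04 and 2.96 CPM in WT replicates 1 to 3. Like *Hmox1*, it was highest in the 2 TG livers with the highest macrophage level. Neutrophil markers had the same order, with medians of 2.38, 3.20 and -0.25 in TG replicates 1 to 3 (log2, relative to the WT mean). The part of either cell type in *Abcc1* was not tested.

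*Ptgr1*, a reductase of lipid aldehydes and ketones, averaged 6.96 ± 3.88 CPM in TG and 2.66 ± 1.05 CPM in WT (SD, n = 3 each, edgeR adjusted p = 0.404). *Blvrb*, a biliverdin reductase, had 76.8, 57.9 and 103 CPM in TG replicates 1 to 3 and 111, 143 and 110.4 CPM in WT replicates 1 to 3, with all TG livers below all WT livers (log2 fold change -0.61, SE 0.25, edgeR adjusted p = 0.421).

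**Figure D5:**
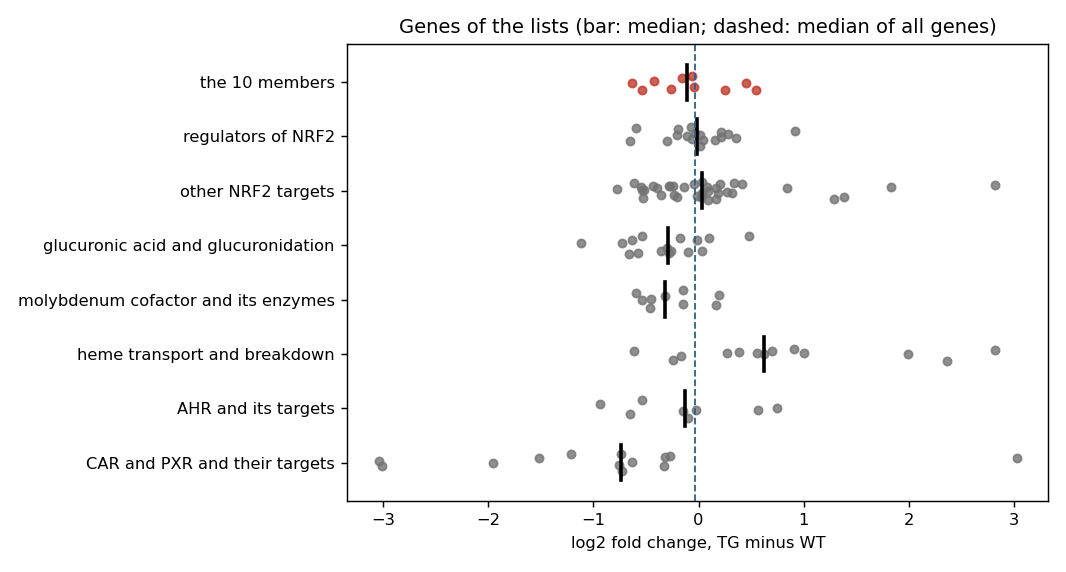
Log2 fold change, TG minus WT, of each tested gene of the members (red) and of 7 related lists (grey), with the list median as a black bar and the median of all genes as a dashed line. The members spread between -0.63 and 0.55 around a median of -0.11, and Hmox1 at 2.82 is the rightmost dot of the other NRF2 targets and of the heme list.

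Several members also answer to other xenobiotic receptors, and those receptors' lists were described beside them. Of 8 tested genes of the aryl hydrocarbon receptor list, 6 had a negative log2 fold change (median -0.12), and 0 passed an adjusted or unadjusted p below 0.05 with edgeR or an adjusted one with DESeq2. *Cyp1a2*, its liver target, had 146, 92.7 and 313 CPM in TG and 295.3, 294.6 and 465 CPM in WT replicates 1 to 3, highest in replicate 3 of either group as *Nqo1* was (edgeR adjusted p = 0.521). *Ugt1a6a* averaged 8.46 ± 1.249 CPM in TG and 12.3 ± 2.16 CPM in WT (SD, n = 3 each, edgeR adjusted p = 0.455).

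Of 13 tested genes of the CAR and PXR list, receptors that also induce *Ephx1* and *Ugdh*, 12 were negative, with a median of -0.74. With edgeR 0 passed the adjusted threshold, 2 were lower and 1 higher by an unadjusted p under 0.05, whereas DESeq2 called 2, *Cyp2c37* and *Cyp2c50*. Over all genes 2.37% were lower and 8.68% higher by the unadjusted p, and DESeq2 called 3.02%. *Cyp2c50* had 121, 77.5 and 223 CPM in TG replicates 1 to 3 and 416, 559 and 237 CPM in WT replicates 1 to 3, and *Cyp2c37* had 33.6, 13.3 and 81.2 CPM in TG and 300.3, 649 and 101 CPM in WT replicates 1 to 3. All TG livers lay below all WT livers for both, but both have close relatives that can share reads. Unlike *Ephx1* and *Ugdh*, both were lowest of WT in replicate 3.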

How the data were processed

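Whole-liver RNA of 3 TG and 3 WT mice was analysed from 1 deposited table of raw read counts, with Ensembl genes in rows and mice in columns. TopHat, Cufflinks and build mm10 are named in the submitters' processing notes, per the labels, without versions. How reads were counted (the program, its gene models, multi-mapped reads, strand) is not given in the sources used here. In the labels the molecule field names genomic DNA, while the protocols describe RNA from Trizol.

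Symbols matched 52403 of 52550 identifiers. In each library the other 147 took up to 0.00337% of all counts. Coordinates and merged exon lengths came from GENCODE M21 of the same build. Genes were filtered with filterByExpr and compared with edgeR 4.0.16 in R 4.3.3 (TMM scaling, robust quasi-likelihood test, Benjamini-Hochberg adjustment over 14031 genes, threshold 0.05). Standard errors are the log2 fold change over the root of F, and 95% intervals use the test's degrees of freedom. DESeq2 1.42.0, limma voom 3.58.1, other scalings and filters, each library left out in turn and a replicate term were alternatives, and the fits were tested on simulated data. The series' design text gives separate mice per group. P-values measure the spread between them only. Floors of 3 counts cover counting error only.

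The 10 members and the 15 lists beside them were chosen with earlier results of these data known. Named genes were the members, *Slc7a11*, *Alb*, *Adgre1*, *Cd68*, 4 paralogs, the genes with the smallest p of each list at a mean of at least 1 CPM (2 per list, 4 for other NRF2 targets) and the 3 genes most like *Nfe2l2*, *Keap1* and *Nqo1*. Those of cell type lists other than macrophages are not named in the text.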

Additional observations from a re-analysis of the deposited data

How the results depend on the processing

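With edgeR 0 genes were called in all, so the transgene's own gene *Slc7a11* was missed too. The number was 390 with DESeq2, 1 with limma voom, 0 to 305 over the libraries left out in turn, highest without TG replicate 3, and 437 without TG replicate 3 and WT replicate 3 together. Of the 10 members 0 were called under each alternative run. The number at an unadjusted p below 0.05, 1 with all libraries, was 0 with library size only (10% of all genes) and with no filter on low counts (7.94%), and 3 without both replicates 3 (17.1%). Over the libraries left out it was 0 to 2, against 5.28% to 16.1% of all genes, with 2 without WT replicate 3 (16.1%), 1 without TG replicate 3 (13%) and 1 without TG replicate 2 (5.28%). Members whose groups did not overlap numbered 1, 0 with library size only, 1 to 4 over the libraries left out (4 without TG replicate 3, against 28.9% of all genes, and 4 without WT replicate 3, against 34.8%) and 7 without both replicates 3. The members' median log2 fold change, -0.11, lay between -0.53 (without TG replicate 3) and 0.12 (without WT replicate 3).

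Some members changed sign, none of them past an adjusted p of 0.05. *Keap1* was at 0.065 with library size only, 0.054 without both replicates 3 and -0.13 to 0.025 over the libraries left out. *Nqo1* was at 0.055 with library size only and -0.50 to 0.22 over the libraries left out. *Cbr3* was at 0.15 with voom, 0.27 with the replicate block, 1.097 without both replicates 3 and -1.20 to 1.65 over the libraries left out. *Ephx1* ranged from -0.55 to 0.028 and *Ugdh* from -0.049 to 1.11 over the libraries left out. The cause was not tested, beyond the number of samples that each alternative leaves.

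Same-numbered libraries did not all deviate together: the correlation of deviations over 14031 genes was 0.15, -0.22 and 0.10 for replicates 1, 2 and 3. TG replicates 1 and 3 correlated best with the WT library of their own number, while TG replicate 2 correlated best with WT replicates 1 and 3 (0.10 each). The labels give no pairing of the numbers. With it edgeR called 0 genes and 0 members, and 1109 genes had an unadjusted p below 0.05 against 1551 without it.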

Other observations

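The markers of other liver cell types differed as follows, with 0 genes of any of these lists past the adjusted threshold with edgeR. Over all genes 11.1% had an unadjusted p below 0.05 with edgeR, and DESeq2 called 3.02%. Neutrophil markers had a median log2 fold change of 2.39 over 7 tested genes, of which 5 had an unadjusted p under 0.05 with edgeR, and DESeq2 called 3. The summed level of all 12 listed genes was 519.8, 3205 and 62.6 CPM in TG replicates 1 to 3. In WT replicates 1 to 3 it was 51.6, 16.8 and 75.2 CPM. The 2 markers named by p had only 24.8 and 54.1 CPM in TG replicate 2, so most of that sum lay in other listed genes. Relative to the WT mean, the median over the tested markers was 2.38, 3.20 and -0.25 (log2) in TG replicates 1 to 3. In WT replicates 1 to 3 it was 0.84, -0.66 and -0.16. Hepatocyte markers had a median of -0.43 over 12 genes, sinusoidal endothelial markers 0.30 over 10, stellate cell and fibroblast markers 0.41 over 10, bile duct markers 0.07 over 6, and B and T cell markers 0.25 over 5. At an unadjusted p below 0.05 these 5 lists held 0, 2, 3, 2 and 0 genes, and DESeq2 called 0, 0, 1, 1 and 0. Paralogs of the members had a median of -0.37 over 6 tested genes, all negative, and DESeq2 called 0 of them, with 1 unadjusted p under 0.05 by edgeR.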
